A study of Strongylocentrotus purpuratus with 4 samples.

Results

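The genes followed here are the spicule matrix genes SM30A, SM37, SM50 and PM27, the cell surface gene msp130 and the regulatory gene Alx1 of the purple sea urchin Strongylocentrotus purpuratus. They were chosen by name and are 6 of the 32262 genes counted in each of 4 single-cell libraries. The skeleton of the sea urchin embryo is made by skeletogenic mesenchyme cells, which ingress early, fuse into a syncytium and secrete calcite spicules. SM30A, SM37, SM50 and PM27 encode proteins of the matrix held within or around the mineral. msp130 encodes a glycoprotein anchored to the surface of these cells, and Alx1 is the homeodomain transcription factor at the head of the skeletogenic programme.

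Each library came from pooled embryos and there was 1 library per group. The groups were uninjected embryos at 72 hpf (hours post fertilization), uninjected embryos at 48 hpf, embryos injected with a gcm morpholino (gcm MO) at 48 hpf, and embryos injected with a control morpholino (control MO) at 48 hpf. The uninjected preparations were enriched for ectoderm by shearing and filtering through a mesh, whereas whole embryos were dissociated for the morpholino libraries. Eggs were fertilized in 3-AT, a compound that keeps the fertilization envelope soft, and those for injection were also dejelled in acid sea water. Injected embryos with the phenotype looked for were pooled. The gcm MO blocks translation of a factor needed for pigment cells, and the control MO targets a sea star sequence. The gcm MO and control MO libraries shared a sequencing lane and the 72 hpf and 48 hpf libraries each had their own, so stage cannot be told apart from library and lane, and injection cannot be told apart from preparation.

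Values are counts of unique molecular identifiers (UMIs), each standing for 1 captured transcript molecule, and levels are given as CPM, counts per 1000000 UMIs of the same cells. The kit captures the 3′ end of each transcript, so no length correction was made. Cells with 400 to 2500 detected genes were kept, which left 6666 cells at 72 hpf, 5170 at 48 hpf, 539 with the gcm MO and 3323 with the control MO. The median depth of the kept cells was lowest at 72 hpf (1487 UMIs) and was 3063.5 UMIs at 48 hpf, 3831 with the gcm MO and 2684 with the control MO. Between 0 and 14 cell barcodes were shared by any pair of libraries, and none of them belonged to a cell with 3 or more of the 6 genes. Intervals are 95% intervals (exact Poisson for levels, Clopper-Pearson for shares, exact conditional binomial for ratios) and cover counting error only. Cells are not replicates and no group had a second library, so no p-value is given.

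The 4 spicule matrix genes were detected in every library. SM30A, which belongs to a family of closely related genes of which only SM30A was matched by name, reached 198 CPM at 72 hpf (191 to 206), 613 CPM at 48 hpf (601 to 625), 544 CPM with the gcm MO (510 to 579) and 1375 CPM with the control MO (1351 to 1399). Reads shared with close copies may have been lost or split, so these are levels of the SM30A row only. SM37 was counted at 32.3 CPM at 72 hpf, 57.7 CPM at 48 hpf, 24.1 CPM with the gcm MO and 50.2 CPM with the control MO. SM50 showed 35.3 CPM at 72 hpf, 55.6 CPM at 48 hpf, 40.1 CPM with the gcm MO and 60.3 CPM with the control MO. For SM37, SM50 and PM27 the 48 hpf and control MO libraries were the highest pair. PM27 lay at 36.6 CPM at 72 hpf, 68.5 CPM at 48 hpf, 28.0 CPM with the gcm MO and 77.5 CPM with the control MO. For each of these 3 genes the intervals of 72 hpf and the gcm MO overlapped, and so did those of 48 hpf and the control MO.

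For the surface gene msp130, as for SM30A, the control MO library alone was high. Its level was 11.3 CPM at 72 hpf (9.64 to 13.2), 15.7 CPM at 48 hpf (13.8 to 17.8), 17.0 CPM with the gcm MO (11.6 to 24.1) and 57.2 CPM with the control MO (52.5 to 62.3). Alx1, a transcription factor gene, was the sparsest. It gave 2.05 CPM at 72 hpf from 30 UMIs, 8.19 CPM at 48 hpf from 126 UMIs, 4.94 CPM with the gcm MO from 9 UMIs and 17.0 CPM with the control MO from 158 UMIs. The intervals of Alx1 overlapped between 72 hpf (1.39 to 2.93) and the gcm MO (2.26 to 9.37), and between the gcm MO and 48 hpf (6.82 to 9.75).

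**Figure D1:**
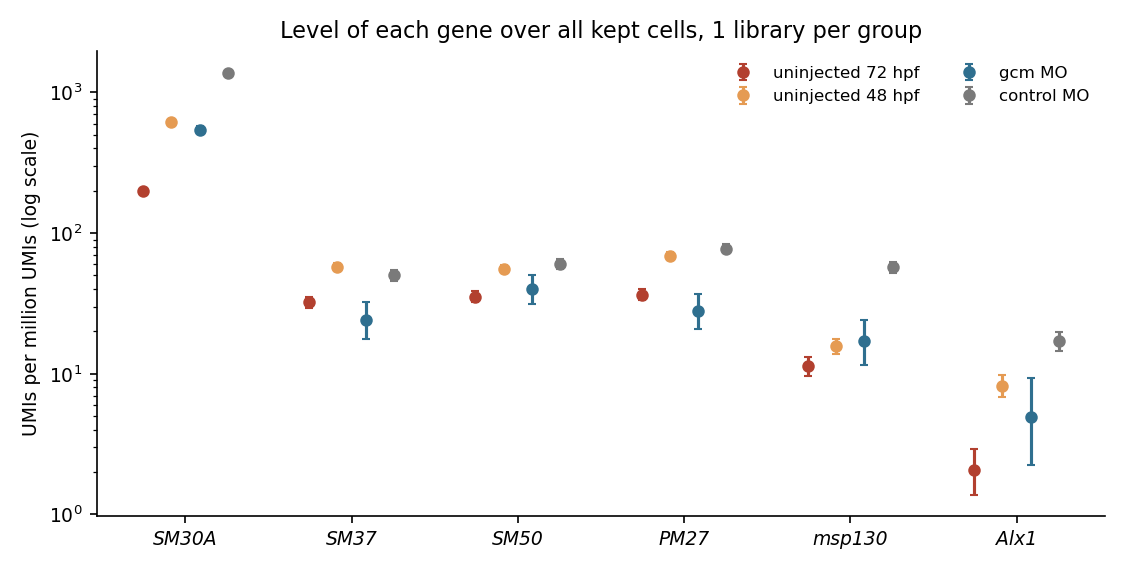
Level of each gene over all kept cells, in CPM on a log axis, for the uninjected 72 hpf, uninjected 48 hpf, gcm MO and control MO libraries. Points are 1 library each and bars are exact Poisson 95% intervals; SM30A, SM50, PM27, msp130 and Alx1 are highest in the control MO library, with intervals that overlap those of 48 hpf for SM50 and PM27. SM30A stands at 1375 CPM and msp130 at 57.2 CPM there, msp130 against 11.3 to 17.0 CPM in the other libraries.

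Most of these UMIs lay in very few cells. A cell in which at least 3 of the 6 genes had a UMI is called a carrier cell here. There were 15 carrier cells at 72 hpf, 25 at 48 hpf, 2 with the gcm MO and 59 with the control MO. They made up 0.225% of kept cells at 72 hpf (0.126 to 0.371), 0.484% at 48 hpf (0.313 to 0.713), 0.371% with the gcm MO (0.0450 to 1.33) and 1.78% with the control MO (1.35 to 2.28). After each cell was thinned to 500 UMIs, a depth every kept cell had, 11, 22, 2 and 49 carrier cells were left in the same order of libraries. Carrier cells held 88.8% of the UMIs of the 6 genes at 72 hpf, 92.4% at 48 hpf, 89.9% with the gcm MO and 92.5% with the control MO. Some single genes had lower shares. With the gcm MO the share was 63.6% for SM37, 78.1% for SM50, 76.5% for PM27 and 55.6% for Alx1. For Alx1 at 72 hpf it was 33.3%. Since carrier cells were picked by these genes, these shares are a description.

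Most carrier cells had 5 or 6 of the genes. At least 5 of the 6 genes were detected in 10 of the 15 at 72 hpf, 23 of the 25 at 48 hpf, both with the gcm MO and 50 of the 59 with the control MO. Cells with 3 or 4 of the genes numbered 5 at 72 hpf, 2 at 48 hpf, 0 with the gcm MO and 9 with the control MO. Cells with exactly 1 gene numbered 436 at 72 hpf, 789 at 48 hpf, 91 with the gcm MO and 857 with the control MO, and cells with exactly 2 numbered 21, 36, 6 and 75. In cells with 5 or 6 of the genes, the 6 genes together gave a median of 12.6% of the cell's UMIs at 72 hpf (range 4.41 to 27.0), 13.0% at 48 hpf (0.363 to 25.6), 14.5% with the gcm MO (14.5 to 14.6) and 8.21% with the control MO (2.53 to 16.7).

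Single cells show the scale of this. The 72 hpf cell with the most UMIs of the set had 457 SM30A, 52 SM37, 45 SM50, 61 PM27, 10 msp130 and 1 Alx1 UMIs among 4429. The top cell at 48 hpf had 759 SM30A, 39 SM37, 32 SM50, 43 PM27, 9 msp130 and 9 Alx1 UMIs among 5382. The 2 carrier cells of the gcm MO library had 826 and 97 SM30A UMIs, 20 and 8 of SM37, 36 and 21 of SM50, 34 and 5 of PM27, 15 and 11 of msp130, and 5 and 0 of Alx1, at total depths of 6413 and 981 UMIs. In the control MO library the top cell had 822 SM30A, 13 SM37, 19 SM50, 29 PM27, 6 msp130 and 5 Alx1 UMIs among 5345. At the other end, 6 of the 59 control MO carrier cells had 3 to 5 UMIs of the set, and another had 13 UMIs of the set beside 73 UMIs of the pigment cell genes.

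**Figure D2:**
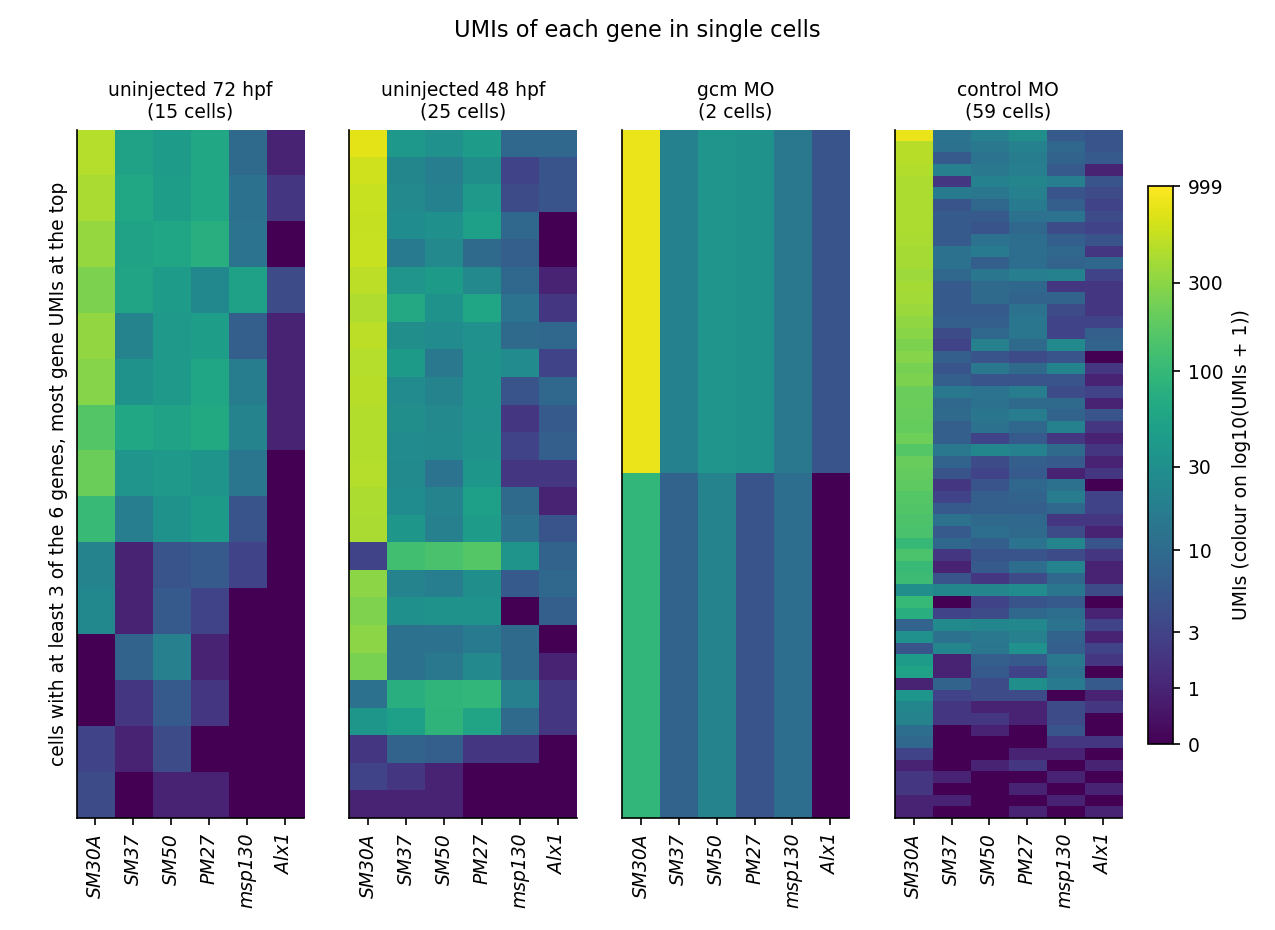
Each row is 1 carrier cell (at least 3 of the 6 genes) of the library named above the panel, each column 1 gene, and the colour gives UMIs on a log10(UMIs + 1) scale. The SM30A column is the brightest in most cells, with up to 822 UMIs in a control MO cell and 826 UMIs in a gcm MO cell, and in 2 rows of the 48 hpf panel SM30A has 3 and 12 UMIs beside 75 to 162 UMIs each of SM37, SM50 and PM27.

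To ask whether each gene was concentrated in the same cells without using the gene itself, cells were classed by the other 5 genes only. For every gene in every library the level was at least 154 times as high in cells with at least 3 of the other 5 as in cells with none of them. With the control MO, SM50 stood at 2788 CPM in 58 cells with 3 or more of the other genes and at 5.65 CPM in 2368 cells with none, a ratio of 494 (353 to 710). SM30A stood at 74063 CPM in 52 such cells and at 93.5 CPM in cells with none, a ratio of 792 (737 to 852). The ratio was 309 for SM37 (229 to 424), 436 for PM27 (332 to 584), 436 for msp130 (318 to 614) and 886 for Alx1 (397 to 2456).

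The uninjected libraries had ratios of the same order or larger. At 72 hpf the ratio was 2621 for SM30A, 2392 for SM37, 2404 for SM50, 3538 for PM27 and 3539 for msp130, and that of Alx1 was lower at 154 (62.1 to 368). At 48 hpf it was 2130 for SM30A, 1674 for SM37, 1483 for SM50, 1528 for PM27, 1217 for msp130 and 421 for Alx1 (270 to 679). Summed over the 6 genes, each with its own classes, the ratio was 2490 at 72 hpf, 1712 at 48 hpf, 2067 with the gcm MO (2 cells in the upper class for each gene) and 580 with the control MO.

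Cells with only 1 or 2 of the other genes were far closer to cells with none. With the control MO, SM37 stood at 7.44 CPM in both, and SM50 at 9.29 and 5.65 CPM (ratio 1.65, 0.942 to 2.82). The ratio lay above 1 there for SM30A (1.55, 1.26 to 1.90), PM27 (1.66, 1.06 to 2.57) and Alx1, which stood at 4.10 CPM in cells with 1 or 2 of the others and at 0.928 CPM in cells with none (4.42, 1.5 to 14.6, from 11 and 6 UMIs). At 48 hpf the intervals of all 6 ratios held 1. At 72 hpf they were above 1 for SM30A (2.35), SM37 (4.57), SM50 (9.42), PM27 (3.83) and Alx1 (4.41). For each gene this class still holds the carrier cells that had that gene and exactly 2 others. At 72 hpf 1 such carrier cell gave 19 of the 42 SM50 UMIs and 8 of the 19 SM37 UMIs of the class. These ratios are therefore not levels outside carrier cells.

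**Figure D3:**
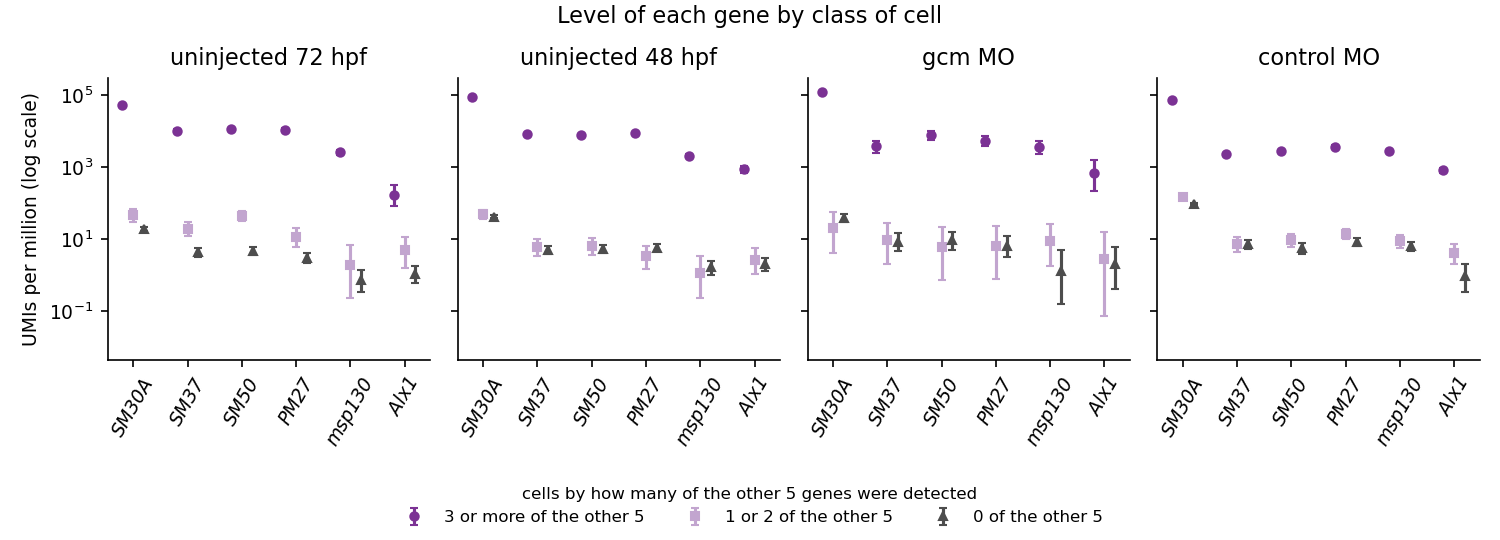
Level of each gene in CPM on a log axis, with cells classed by how many of the other 5 genes had a UMI (3 or more, 1 or 2, none), 1 panel per library. Bars are exact Poisson 95% intervals; the upper class stands apart in every panel, as for SM50 at 2788 CPM against 5.65 CPM with the control MO, and the 1-or-2 class lies far below it, at 9.29 CPM for SM50 with the control MO.

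Pairs of genes were found together far more often than their rates give. In the control MO library, 47 of the 62 cells with Alx1 had SM50 (75.8%, 63.3 to 85.8), against 63 of the 3261 cells without Alx1 (1.93%, 1.49 to 2.47). At 48 hpf, 19 of the 46 cells with Alx1 had SM50 (41.3%, 27.0 to 56.8), against 1.64% of the cells without. Over the 15 pairs, cells with both genes were seen a median of 13.0 times as often with the control MO (range 2.32 to 23.3) as the product of the detection rates gives. The median was 21.2 times at 72 hpf, 13.5 times at 48 hpf and 7.32 times with the gcm MO. The gcm MO pairs ranged from 1.56 to 27.0 times, each from only 1 to 3 cells with both genes. In every library the 5 pairs with SM30A had the lowest values, and SM30A had a UMI in 4.26% of kept cells at 72 hpf, 11.7% at 48 hpf, 11.3% with the gcm MO and 24.1% with the control MO.

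Of genes with at least 50 UMIs, SM30A had the largest variance over mean of thinned counts across cells in all 4 libraries, at 45.2 at 72 hpf, 59.2 at 48 hpf, 52.8 with the gcm MO and 37.5 with the control MO. A value near 1 is what an even spread gives. At 72 hpf, 48 hpf and with the control MO, 5 of the 6 genes reached a value of 2 (SM30A, SM37, SM50, PM27 and msp130), as did 1.63%, 1.34% and 1.39% of all genes tested in those libraries, and 2 did with the gcm MO (SM30A and SM50, of the 3 with at least 50 UMIs, background 2.87%). Alx1 was at 1.47 at 48 hpf and 1.55 with the control MO, with 21 and 25 UMIs left after thinning. Without the carrier cells, the 6 genes ranged from 0.991 to 1.20 in all libraries. The exceptions were SM50 at 72 hpf, which stayed at 1.82, and msp130 with the gcm MO, which had no UMI left. Since carrier cells are picked by these genes, values near 1 without them follow in part from the choice and are a description.

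Outside the carrier cells the 6 genes were thinly spread. Their summed level there was 35.5 CPM at 72 hpf (32.5 to 38.7), 62.5 CPM at 48 hpf (58.6 to 66.6), 66.7 CPM with the gcm MO (55.3 to 79.7) and 126 CPM with the control MO (119 to 133). SM30A was at 94.9 CPM in these other cells of the control MO library, with a UMI in 22.7% of them at a median depth of 2683. Cells with at least 10 UMIs of the pigment cell genes had 93.9 CPM and a UMI in 19.2% at a median depth of 2078. Cells with at least 10 UMIs of the gut gene Endo16 had 51.7 CPM and a UMI in 19.7% at a median depth of 4005. At 48 hpf SM30A was at 47.1 CPM in the pigment-gene cells, 26.2 CPM in the Endo16 cells and 42.8 CPM in all other cells. The part of free RNA in these values was not tested.

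With the control MO, the spread of SM30A over the other cells was close to an even one. There, 103 of them had 2 or more SM30A UMIs where 106 follow from each cell's depth. More did than follow at 48 hpf (63, where 49.5 follow), at 72 hpf (16, 9.60 follow) and with the gcm MO (8, 5.34 follow). For the rarer genes such cells were few, but in most cases more than follow, as for SM37 at 48 hpf (4, 0.753 follow). PM27 at 48 hpf was close to an even spread (1, 0.918 follow). PM27 with the gcm MO and msp130 at 72 hpf had no such cell. SM50 had 2 or more UMIs in 6 cells at 72 hpf where 0.663 follow, and 2 of these had 4 SM50 UMIs at depths of only 766 and 1048 UMIs. Alx1 had 2 or more UMIs in 3 cells at 72 hpf (0.0477 follow) and in 4 cells at 48 hpf (0.143 follow). In 1 of those at 48 hpf, 3 Alx1 UMIs came with 12 of erg, 35 of COLP3alpha and 2 of SM37. PM27 had 2 or more UMIs in 7 cells with the control MO (1.36 follow).

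The makeup of the set differed between carrier cells and the rest. SM30A made up 63.6% of the set's UMIs in carrier cells and 56.6% in other cells at 72 hpf, 75.4% and 68.6% at 48 hpf, 85.6% and 56.2% with the gcm MO, and 84.7% and 75.4% with the control MO. In each library the SM30A share was higher in carrier cells. The 95% intervals of the pair did not overlap, but they count UMIs and leave out differences between cells. With the gcm MO, 826 of the 923 SM30A UMIs in carrier cells came from 1 cell. Alx1 went the other way, with 0.244% in carrier cells and 3.88% in other cells at 72 hpf, and 0.799% and 3.46% at 48 hpf. With the gcm MO it made up 0.464% and 3.31%, from 5 and 4 UMIs and with intervals that overlapped. With the control MO the 2 shares were close, at 1.03% and 1.13%. Of the 30 Alx1 UMIs at 72 hpf, 33.3% lay in carrier cells (17.3 to 52.8), against 73.8% at 48 hpf, 55.6% with the gcm MO and 91.8% with the control MO.

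Between stages, the set was lower at 72 hpf. Its summed level was 316 CPM at 72 hpf (307 to 325) and 819 CPM at 48 hpf (804 to 833), a ratio of 0.386 (0.373 to 0.399). Taken singly, the ratio of 72 hpf over 48 hpf was 0.324 for SM30A, 0.560 for SM37, 0.636 for SM50, 0.534 for PM27, 0.721 for msp130 and 0.251 for Alx1, and all 6 intervals lay under 1. SM30A and Alx1 were at least 2-fold lower, 2 of the 6, where 11% of the 13282 genes compared were, and none was at least 2-fold higher, where 9.67% were. The median ratio of all genes was 0.953. Carrier cells were also rarer at 72 hpf, with 0.225% of cells against 0.484% at 48 hpf (ratio 0.465, 0.228 to 0.918). In these bulk sums, fewer carrier cells and less RNA per carrier cell cannot be told apart, which is why each gene was also compared among cells chosen by the other 5.

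Within such cells most of the set was not lower at 72 hpf. In cells with at least 3 of the other 5 genes, SM37 stood at 10373 CPM at 72 hpf, against 8363 CPM at 48 hpf (ratio 1.24, 1.10 to 1.40). SM50 had a ratio of 1.40 (1.24 to 1.58), PM27 of 1.22 (1.09 to 1.36) and msp130 of 1.30 (1.05 to 1.61). The medians over cells had ratios of 1.48 for SM37, 1.62 for SM50, 1.62 for PM27 and only 1.03 for msp130. At 72 hpf 1 cell held 51 of the 153 msp130 UMIs. With at least 4 of the other 5 genes required, the ratio of medians of msp130 was 1.57. SM30A remained lower, at 51484 CPM over 13 of these cells at 72 hpf, against 90757 CPM over 23 at 48 hpf (ratio 0.567, 0.543 to 0.593). That value depends on the class, since with at least 4 of the other 5 genes required, which left out 3 cells at 72 hpf, it was 0.875 (0.837 to 0.914). Alx1 was the lowest, with 171 CPM over 15 of these cells at 72 hpf, against 863 CPM over 25 at 48 hpf (ratio 0.198, 0.0922 to 0.382), and 0.281 (0.131 to 0.541) with at least 4 required. It had a UMI in 6 of the 15 cells at 72 hpf and in 19 of the 25 cells at 48 hpf. Carrier cells had median depths of 3558 UMIs at 72 hpf and 4560 UMIs at 48 hpf.

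Between morpholinos, the summed level was 658 CPM with the gcm MO (621 to 696) and 1637 CPM with the control MO (1611 to 1663), a ratio of 0.402 (0.379 to 0.426). All 6 genes were lower over all kept cells, with ratios of 0.396 for SM30A, 0.481 for SM37, 0.664 for SM50, 0.361 for PM27, 0.297 for msp130 and 0.291 for Alx1. Of these, 5 of the 6 were at least 2-fold lower, against 7.17% of the 9807 genes compared, and none was at least 2-fold higher, against 9.74%. With cells of 200 to 2500 genes, or with all deposited cells, 3 of the 6 were at least 2-fold lower (SM30A, PM27 and Alx1). With 200 to 2500 genes msp130 had a ratio of 0.682 and SM37 of 0.689. SM37 was at 0.786 with equal weight per cell and 0.725 after thinning to 500 UMIs. The median ratio of all genes was 1.13. These values rest on 1 cell, which held 83.4% of the SM30A UMIs and 78.1% of all UMIs of the set in the gcm MO library. Without the cell with the most UMIs of the set in each library, the ratio was 0.0939 (0.0828 to 0.106). SM50 was not lower with the gcm MO when each cell had equal weight (ratio 1.22) or was thinned to 500 UMIs (1.07).

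Carrier cells were a smaller share of the kept cells with the gcm MO. They were 2 of 539 cells with the gcm MO and 59 of 3323 with the control MO, a ratio of shares of 0.209 (0.0247 to 0.789). Among all deposited barcodes the counts were 6 of 643 with the gcm MO and 63 of 3402 with the control MO. The ratio was then 0.504, with an interval that held 1 (0.178 to 1.16). The study reports that cells of gcm MO embryos lysed more readily on dissociation, so that fewer were sequenced. The part of this in the shares was not tested. In cells with at least 3 of the other 5 genes, the levels in the 2 gcm MO cells were not below those of the control MO cells for the matrix genes. SM30A stood at 124831 CPM in the gcm MO cells and 74063 CPM in the control MO cells (ratio 1.69, 1.57 to 1.80), and SM50 at 7709 and 2788 CPM (ratio 2.76, 2.06 to 3.64). SM37 had a ratio of 1.65 (1.08 to 2.42) and PM27 of 1.42 (1.00 to 1.97), and with at least 4 of the other genes required both intervals held 1. The ratios of msp130 (1.26, 0.813 to 1.87) and Alx1 (0.822, 0.263 to 1.96) had intervals that held 1. With 2 cells these describe those cells.

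Between the 48 hpf preparations, uninjected ectoderm-enriched embryos had less of the set than whole control MO embryos. The summed level was 819 CPM in uninjected embryos and 1637 CPM with the control MO (ratio 0.500, 0.488 to 0.512). SM30A (0.446), msp130 (0.274) and Alx1 (0.483) were at least 2-fold lower, 3 of the 6, where 10.2% of the 12434 genes compared were. None was at least 2-fold higher, where 10.4% were. With cells of 200 to 2500 genes, or after thinning to 500 UMIs, 2 of the 6 were at least 2-fold lower. SM37 was slightly higher (1.15, 1.03 to 1.29), but its ratio was 0.95 when each cell had equal weight and 0.991 after thinning. The interval of SM50 held 1 (0.921, 0.827 to 1.03), and PM27 was lower (0.884, 0.804 to 0.973). Carrier cells were rarer in the uninjected embryos, at 0.484% against 1.78% with the control MO (ratio 0.272, 0.163 to 0.442).

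The levels within cells split the set. In cells with at least 3 of the other 5 genes, SM37 stood at 8363 CPM in uninjected embryos and 2298 CPM with the control MO (ratio 3.64, 3.22 to 4.11). SM50 stood at 7969 and 2788 CPM (ratio 2.86, 2.55 to 3.20), and PM27 at 9004 and 3706 CPM (ratio 2.43, 2.20 to 2.69). The medians over cells had ratios of 4.02 for SM37, 2.43 for SM50 and 2.59 for PM27. SM30A was 1.23-fold higher in uninjected embryos (1.19 to 1.26), and its ratio of medians was 1.62. Alx1 had a ratio of 1.05 (0.799 to 1.37), and msp130 went the other way with 2014 CPM in uninjected embryos and 2794 CPM with the control MO (ratio 0.721, 0.611 to 0.849), although its ratio of medians was 0.992.

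**Figure D4:**
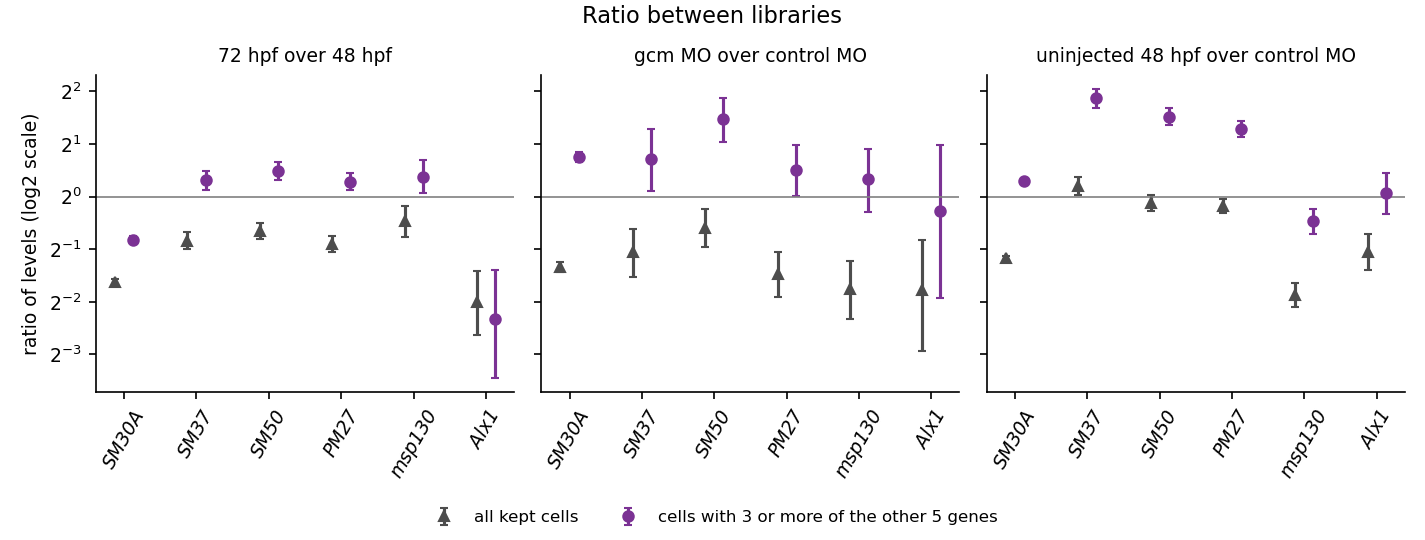
Ratio of each gene's level between libraries on a log2 axis, over all kept cells (triangles) and in cells with at least 3 of the other 5 genes (circles), with 95% conditional binomial intervals and a line at 1. The circles lie above the triangles for all genes except Alx1 at 72 hpf over 48 hpf, and SM37 of uninjected 48 hpf embryos over the control MO stands at 3.64 within cells and 1.15 over all cells.

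SM37, SM50 and PM27 moved together from cell to cell, and SM30A did not follow them. Across the 23 cells with 5 or 6 of the genes at 48 hpf, the share of a cell's UMIs given by SM37 correlated with that of SM50 (Pearson's r 0.881, Spearman's rho 0.833) and of PM27 (r 0.922, rho 0.849), and SM50 with PM27 (r 0.802, rho 0.749). For SM30A rho was 0.0474 with SM37, 0.185 with SM50 and 0.0593 with PM27, with r from -0.320 to -0.165. Alx1 had rho from -0.278 to 0.00892 with the 4 matrix genes at 48 hpf. Across the 50 such control MO cells, rho was 0.406 for SM37 with SM50, 0.503 for SM37 with PM27 and 0.643 for SM50 with PM27, and -0.172, -0.142 and -0.0415 for SM30A with these genes. Alx1 had rho of 0.390 with PM27 (r 0.531), 0.205 with SM37, 0.218 with SM50 and 0.0443 with SM30A in these control MO cells. SM30A and msp130 ran opposite to each other there (r -0.516, rho -0.577), but not at 48 hpf (rho 0.081). At 48 hpf msp130 had rho of 0.489 with SM37, 0.502 with SM50 and 0.495 with PM27. With the control MO its rho was -0.137 with SM37, 0.188 with SM50 and -0.0382 with PM27. The cells behind each correlation share a library and a fixed total, and the correlations are given as descriptions.

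The ratio of SM37 to SM50 UMIs within such cells at 48 hpf ranged from 0.539 to 2.80 (median 1.14), whereas that of SM30A to SM50 ranged from 0.0221 to 35.5 (median 18.2). Over the 10 such cells at 72 hpf, SM30A to SM50 did not vary more widely. It ranged from 3.02 to 10.2 there, and SM37 to SM50 from 0.200 to 1.32. The 48 hpf cells fell into 2 separate ranges. In 19 of the 23 cells SM30A gave between 71.2% and 90.5% of the set's UMIs, and in the other 4 it gave between 0.641% and 15.6%. One of these 4 had 3 SM30A UMIs beside 124 SM37, 136 SM50, 162 PM27, 35 msp130 and 8 Alx1 UMIs. Another had 12 SM30A UMIs beside 75 SM37, 90 SM50 and 97 PM27 UMIs, and carried 56 UMIs of the pigment cell genes as well. In the control MO library, SM30A was under 50% of the set in 5 of the 50 cells, which ranged from 1.54% to 36.8%, and the next cell stood at 58.1%. At 72 hpf the 10 cells ranged from 43.9% to 73.5% with no such gap, and the 2 gcm MO cells stood at 68.3% and 88.2%. The boundary of 50% was set after these values were seen.

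The depth of the cells with little SM30A was of the same order as that of the others. Their median depth was 4849 UMIs at 48 hpf, against 4027 UMIs in the other cells with 5 or 6 genes, and 2462 against 3209 UMIs with the control MO. Since these cells were picked by a low SM30A share of the set, higher values of the other genes of the set follow in part from the choice, and 1 of the 4 at 48 hpf had only 21 UMIs of the set. As a description, at 48 hpf SM50 stood at 17948 CPM in the low-SM30A cells and 5694 CPM in the others (ratio 3.15), and SM37 and PM27 had ratios of 2.02 and 2.13. With the control MO the ratios were 2.23 for SM50, 3.53 for SM37 and 3.22 for PM27. Genes outside the set gave a mixed picture. COLP3alpha, a collagen gene, was lower in the low-SM30A cells at 48 hpf (4292 and 18124 CPM, ratio 0.237, 0.186 to 0.298) and slightly lower with the control MO (17575 and 21035 CPM, ratio 0.836, 0.723 to 0.961). The transcription factor gene erg had ratios whose intervals held 1, at 1.46 (0.757 to 2.67) at 48 hpf and 1.23 (0.513 to 2.55) with the control MO. Of the 350 UMIs of the aboral ectoderm gene ARS in the 4 low-SM30A cells at 48 hpf, 344 lay in 1 cell.

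**Figure D5:**
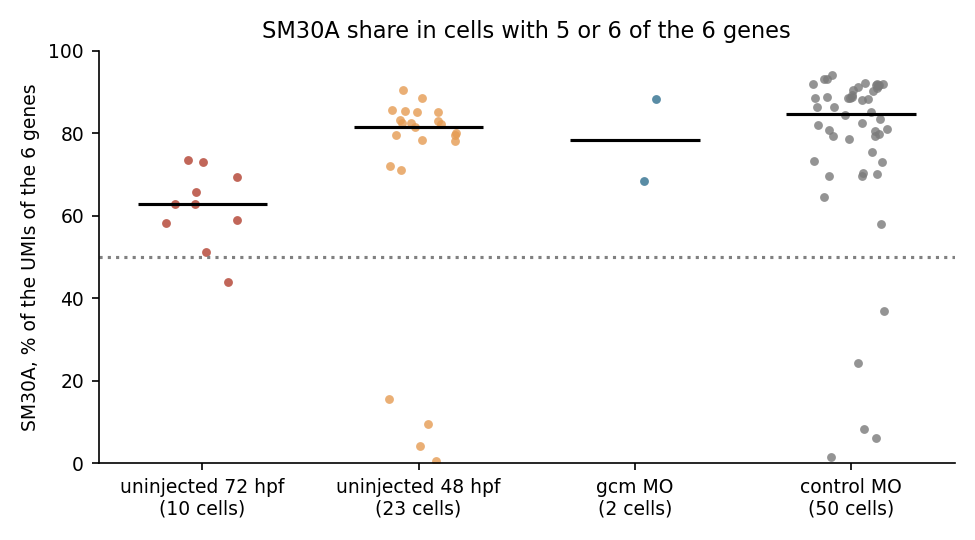
SM30A as a percentage of the UMIs of the 6 genes in each cell with 5 or 6 of them, by library, with a bar at the median and a dotted line at 50%. At 48 hpf 4 of 23 cells lie at 15.6% or less and the rest at 71.2% or more, and with the control MO 5 of 50 cells lie under the line.

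Carrier cells also held other genes of the skeletogenic programme. Among genes other than the 6, 6.22% of those with at least 50 UMIs were at least 4-fold higher in carrier cells than in other cells at 72 hpf, 5.6% at 48 hpf, 6.53% with the gcm MO and 6.12% with the control MO. Of the 4 mesenchyme collagens, COLP3alpha was 695-fold higher in carrier cells at 72 hpf, 221-fold at 48 hpf, 114-fold with the gcm MO and 107-fold with the control MO, and COLP4alpha was 108- to 726-fold higher. COLP1alpha and COLP2alpha were absent or nearly so from carrier cells at 48 hpf (2 and 0 UMIs) and with the control MO (4 and 0 UMIs). At 72 hpf 1 carrier cell with 438 UMIs of the set had 184 of the 193 COLP1alpha UMIs and all 65 COLP2alpha UMIs found in carrier cells.

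Of 15 other skeletogenic effector genes looked for by name, 2 were matched. P16, which encodes a small transmembrane protein of skeletogenic cells, had 39 of its 42 UMIs in carrier cells at 72 hpf, 29 of 30 at 48 hpf and 72 of 79 with the control MO, and it was not seen with the gcm MO. The matrix gene SM29 had 16 of 17 UMIs in carrier cells at 48 hpf and 8 of 8 with the control MO, and none at 72 hpf or with the gcm MO. Of 16 regulators and receptors, 5 were matched. The regulator erg was 40.5-fold higher in carrier cells with the control MO (30.3 to 54.1), 33.5-fold with the gcm MO, 39.9-fold at 48 hpf and 9.97-fold at 72 hpf (3.6 to 22.2). The regulator dri was not concentrated there, with ratios of 0.996 at 72 hpf, 0.409 at 48 hpf, 0.161 with the gcm MO and 0.216 with the control MO, and ets1 had 0 to 2 UMIs in the carrier cells of any library. The regulator snail had a ratio of 4.37 with the control MO (5 UMIs in carrier cells) and 2.23 at 48 hpf (2 UMIs), and the Notch ligand gene delta had 0.333 with the control MO, 0 UMIs at 48 hpf and 2.02 at 72 hpf. Over the matched regulators with at least 50 UMIs, the median ratio was 1.51 at 72 hpf (4 genes), 1.32 at 48 hpf (4 genes), 0.161 with the gcm MO (1 gene) and 2.35 with the control MO (4 genes).

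Markers of other cells were low in carrier cells but not absent. Genes with at least 50 UMIs for pigment (4, but 2 with the gcm MO), gut (3, but 2 at 72 hpf), aboral ectoderm (2) and germline (1) all had ratios under 1 in every library. That was usual, since the median ratio of all genes was 0.398 at 72 hpf, 0.476 at 48 hpf, 0 with the gcm MO and 0.672 with the control MO. The median of the pigment genes was 0.353 at 72 hpf, where 1 of 4 intervals lay under 1, 0.12 at 48 hpf, where 4 of 4 did, and 0.365 with the control MO, where 2 of 4 did. The germline gene vasa had a ratio of 0.727 at 48 hpf, whose interval held 1 (0.149 to 2.14). The pigment gene pks1 was at 85.7 CPM in carrier cells and 330 CPM in other cells at 72 hpf, at 390 and 1054 CPM at 48 hpf, and at 216 and 441 CPM with the control MO, and 38 of its 42 UMIs in 48 hpf carrier cells lay in 1 cell. Endo16 had 0 UMIs in carrier cells of the uninjected and gcm MO libraries and 60 in those of the control MO library, 48 of them in 1 cell with 3 UMIs of the set. ARS was at 1696 CPM in carrier cells and 11002 CPM in other cells at 72 hpf, at 5829 and 15415 CPM at 48 hpf, and at 1519 and 9314 CPM with the control MO. The part of free RNA or of joined cells in these values was not tested.

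The genes whose pattern was most like that of the set were ranked by the share of their UMIs in control MO carrier cells, which held 1.94% of all UMIs. Of 9062 genes with at least 50 UMIs, 77 had 50% or more of their UMIs there and 52 had 80% or more. The 10 highest had no name in the files beyond a locus number, and ranged from LOC576710, with 109 of 111 UMIs in carrier cells (98.2%), to LOC579383, with 516 of 543 (95%). In the 48 hpf library, which had no part in the ranking, LOC576710 had 39 of 39 UMIs in carrier cells, LOC105443959 had 93 of 99, LOC100888659 had 100 of 103 and LOC579383 had 252 of 261, where carrier cells held 0.700% of all UMIs. All 10 had 88.9% or more of their UMIs in carrier cells at 48 hpf, and 66.7% or more at 72 hpf, where the counts were 4 to 47 UMIs per gene.

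SM50, SM37 and PM27 are near neighbours in the RefSeq gene table of the later assembly Spur_5.0, in which all 6 genes were found. LOC105437370 alone lies between SM50 and SM37, and LOC588710 alone between SM37 and PM27. Both of these genes followed the set. LOC105437370 had 68 of 88 UMIs in carrier cells at 72 hpf, 154 of 177 at 48 hpf, 10 of 12 with the gcm MO and 235 of 276 with the control MO. LOC588710 had 30 of 34 UMIs there at 72 hpf, 24 of 26 at 48 hpf and 9 of 10 with the control MO, and no UMI with the gcm MO. Whether reads of these neighbours overlap in the counting was not tested, and the assembly used for the counts is an older one.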

How the data were processed

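Per the labels and the study's methods, the authors dissociated embryos, made 10x Chromium 3′ v3 libraries, counted UMIs with Cell Ranger on a reference from assembly Spur_4.2 and deposited counts per gene and cell for 4 libraries, without normalization (Seurat 3.1.4 was used downstream in the study). The Cell Ranger version differs between the study's methods and the file headers, and the treatment of reads shared by close gene copies is not given in the sources used here. The deposited totals were 16804569 UMIs at 72 hpf, 17172515 at 48 hpf, 2298196 with the gcm MO and 9454334 with the control MO. Depth limits the gcm MO library most, where 3 UMIs, the upper limit given to a count of 0, are 1.65 CPM of the kept cells.

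The limits of 400 and 2500 genes per cell follow the study's methods. Summed UMIs were turned into CPM with exact Poisson intervals, shares were given Clopper-Pearson intervals, and for ratios a conditional binomial interval was used (95% throughout; scipy 1.17.1 with pandas 2.3.3 and numpy 2.4.6 under Python 3.11.15). Thinning to 500 UMIs drew without replacement. The interval and dispersion calculations were tested on simulated data. With 1 library per group no test across libraries was possible. Background shares count genes that reached 50 UMIs, summed over the pair of libraries for a fold between libraries and within the library for carrier cells and dispersion. Doublets were kept. The named genes were the 6 members, the listed markers found by name, and the 10 genes with the highest share of UMIs in control MO carrier cells; other loci were named after their values were seen. The members and lists were chosen with earlier results of these data known. Alternatives were other limits on genes per cell, Scrublet doublet removal (scanpy 1.11.5), thinning, equal weight per cell, leaving out the top cell, and other detection thresholds; at least 4 of the other genes and the ratio of medians over cells were added after seeing the data. The study's in situ hybridization and qPCR were not analysed here.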

Additional observations from a re-analysis of the deposited data

Results flagged for a closer look

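Barcodes outside the range of 400 to 2500 genes, which the comparisons of levels did not use, also held cells with at least 3 of the 6 genes, in a number above the 3 that was taken as the limit of a count of 0. At 48 hpf, 5 of the 117 uninjected barcodes with over 2500 genes were such cells, and they held 880 of the 910 UMIs of the set found there. At 48 hpf, 7 of the 401 uninjected barcodes with under 400 genes were such cells, with 198 of 266 UMIs. With the gcm MO, 4 of the 56 barcodes with under 400 genes were such cells, with 220 of 231 UMIs, against 3 of 69 with the control MO. The gcm MO library thus had more such cells under the lower limit of genes than within the kept range, where there were 2.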

How the results depend on the processing

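No paired analysis was possible because each group was 1 library and the labels give no replicate numbers. Of the summary results, leaving doublet removal aside, 56 values under an alternative stayed close to the reported one and 34 moved. Where the reported value had an interval, close meant within it. That is a loose limit for the gcm MO share of carrier cells, whose interval was 0.0450% to 1.33%. For co-detection, close meant within the range over the 15 pairs, which is a loose limit as well. After thinning, the median went from 21.2 to 47.6 at 72 hpf and from 7.32 to 16.3 with the gcm MO, and both counted as close. No summed ratio between libraries crossed 1. Shares, co-detection and dispersion have no direction that could change, and ratios of the upper class to cells with none lay far above 1. The 72 hpf over 48 hpf ratio of the set was 0.362 with no upper limit on genes, 0.353 over all deposited cells and 0.359 without the top cell of each library. The gcm MO over control MO ratio was 0.325 with no upper limit, 0.462 with 200 to 2500 genes, 0.374 over all deposited cells, 0.456 with equal weight per cell, 0.470 after thinning to 500 UMIs and 0.0939 without the top cell. The ratio of uninjected 48 hpf over the control MO was 0.484 with no upper limit, 0.478 over all deposited cells and 0.477 with equal weight. Cells with at least 2 of the 6 genes made up 0.540% at 72 hpf, 1.18% at 48 hpf, 1.48% with the gcm MO and 4.03% with the control MO. The ratio of the upper class to cells with none was, at 72 hpf, 2145 with 200 to 2500 genes, 1409 with at least 2 of the other genes and 3130 with at least 2 UMIs for detection. At 48 hpf it was 1199 with no upper limit, 1582 with 200 to 2500 genes, 1123 over all deposited cells, 960.1 with at least 2 of the other genes and 1921 with at least 2 UMIs. It was 759 with the gcm MO and 307 with the control MO with at least 2 of the other genes, and 685 with the control MO with at least 2 UMIs. Median co-detection with at least 2 UMIs was 229.9 times expectation at 72 hpf, 162 at 48 hpf, 71.9 with the gcm MO and 53.6 with the control MO. After thinning it was 47.6 at 72 hpf, 64.8 at 48 hpf, 16.3 with the gcm MO and 38.6 with the control MO. The lowest gcm MO pair then had 0 cells with both genes. With genes of at least 20 UMIs, 4 of the set had a variance over mean of 2 or more with the gcm MO. Of single genes, 4 values changed direction: SM50 of the gcm MO over the control MO was 1.22 with equal weight and 1.07 after thinning, and SM37 of uninjected 48 hpf over the control MO was 0.95 and 0.991. The causes were not tested. Scrublet called 0 cells at 72 hpf, 2 at 48 hpf, 12 with the gcm MO and 36 with the control MO, none of them carrier cells, so that removing its calls could not move the uninjected values. Depth limits Alx1 and the gcm MO library most.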
